A study of Mus musculus with 104 samples.

Results

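The liver was compared across birth, between E18.5 and P1, by reduced representation bisulfite sequencing (RRBS), in which MspI fragments are bisulfite treated and sequenced so that the methylated share of reads at each CpG is measured. The comparison took 4 libraries at E18.5 (labelled E18, replicates 1, 6, 14 and 15) and 4 at P1 (replicates 1, 2, 3 and 5), which are 8 of the 104 samples of the series. All of them were liver tissue of C57BL/6 mice (C57BL/6J in the study's methods, which give an outside mouse supplier as the origin of the time-course tissues), the labels name no treatment or genetic change, and they do not give the sex or litter of these samples. A CpG was a member when it had a value in at least 3 libraries of each age, which 70051 of the 70259 CpGs of the liver table had. Each entry is a cytosine on 1 strand: 34961 were on the plus strand and 34937 on the minus strand of assembled chromosomes, and the rest lay on random or unplaced sequence. Values are given as percent DNA methylation, the methylated part of the reads that covered a cytosine in a library.

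The late fetal liver holds erythroblasts and other blood-forming cells between its hepatocytes, and these become scarce in the first weeks of life. In the study's histology the share of blood-forming cells was higher at P1 than at E18.5, and it was low by P10. With the loss of placental supply, hepatocytes take on gluconeogenesis, lipid oxidation, ammonia detoxification and bile acid synthesis. CpG methylation is laid down by DNA methyltransferases and removed by TET enzymes or by dilution at cell division. In mammalian tissues most CpGs far from genes are highly methylated, and CpG-rich promoters mostly lack methylation. These were bulk tissue samples, so a different share of a cell type and a different level within a cell type cannot be told apart.

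The libraries did not have equal coverage. E18.5 replicate 14 had no value at 50.3% of the members, P1 replicate 1 had none at 5.38%, P1 replicate 5 at 1.64% and the others at 0.19% or less. Replicate 14 also had the most values at the ends of the scale, with 15.6% of CpGs at 0% and 7.70% at 100%, against 2.83% to 9.44% and 0.10% to 4.14% in the other libraries over the same 32445 CpGs with a value in all 8 libraries. Read counts per CpG were not used here. By the authors' filter each value had at least 10 reads, and how far a single value was above that is unknown. The tissue label was checked against muscle of the same ages: over 8493 CpGs with a value in every library, each of the 17 liver and muscle libraries correlated best with a library of its own tissue. Among the liver libraries, the median Pearson correlation across CpGs was 0.85 between pairs of E18.5 libraries, 0.89 between pairs of P1 libraries and 0.88 between an E18.5 and a P1 library.

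Sequences of 6 runs of neighbouring CpGs are shown first because the local comparison turns on them. They come from mm9, plus strand, 5′ to 3′, with 10 bases on each side of the run, and capitals mark the measured cytosines (a capital C is measured on the plus strand, a capital G marks the cytosine of the opposite strand). The first 3 were higher at P1 and the last 3 were lower.
Fer run (chr17:64519915-64520079): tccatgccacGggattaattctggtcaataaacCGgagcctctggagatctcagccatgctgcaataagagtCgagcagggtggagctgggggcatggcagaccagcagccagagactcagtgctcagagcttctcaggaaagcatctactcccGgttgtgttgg
Dnahc5 run (chr15:28159281-28159541): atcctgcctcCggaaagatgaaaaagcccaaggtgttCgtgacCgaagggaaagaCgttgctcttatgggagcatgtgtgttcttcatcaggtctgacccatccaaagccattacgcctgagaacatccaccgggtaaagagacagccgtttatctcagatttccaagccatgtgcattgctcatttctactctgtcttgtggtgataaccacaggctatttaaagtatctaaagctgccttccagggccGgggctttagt
Nkx2-1 run (chr12:57625813-57625970): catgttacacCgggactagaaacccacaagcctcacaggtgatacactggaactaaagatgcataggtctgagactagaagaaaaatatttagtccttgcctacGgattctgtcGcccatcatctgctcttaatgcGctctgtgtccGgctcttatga
Runx1 run (chr16:92606171-92606231): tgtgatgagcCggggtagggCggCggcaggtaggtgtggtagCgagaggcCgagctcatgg
Agap2 run (chr10:126517378-126517440): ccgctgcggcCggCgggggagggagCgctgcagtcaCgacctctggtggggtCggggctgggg
Actn1 run (chr12:81269355-81269414): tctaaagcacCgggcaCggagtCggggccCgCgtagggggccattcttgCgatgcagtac
The 3 runs that were higher hold measured cytosines on both strands and 2 or 3 CCGG cut sites each. The runs at Runx1, Agap2 and Actn1 each hold cytosines of 1 strand within a read length of 1 cut site, so their cytosines can share reads and are not separate measurements of one another.

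The mean over the 32445 CpGs with all values was 47.7% ± 1.95 (SD, n = 4) at E18.5 and 49.8% ± 1.23 (SD, n = 4) at P1. By library it was 50.1%, 48.1%, 47.1% and 45.5% in E18.5 replicates 1, 6, 14 and 15 and 48.3%, 49.6%, 51.3% and 50.03% in P1 replicates 1, 2, 3 and 5. The groups overlapped, because E18.5 replicate 1 was above 3 of the P1 libraries. The difference of 2.12 percentage points was not larger than the spread between libraries (exact permutation test, two-sided, p = 0.143), and the smallest p that 4 against 4 libraries allow is 0.0286. Without E18.5 replicate 1 it was 2.93 percentage points and passed the limit of 0.1 (exact permutation test of 3 against 4, p = 0.0571), and without replicate 15 it was 1.38. Over 5824 CpGs with a value in all 23 liver libraries, the mean was 45.9% ± 1.98 at E18.5, 48.3% ± 1.47 at P1, 49.9% ± 1.72 at P5 (SD, n = 4 each), 53.1% ± 1.5 at P10 (SD, n = 3) and 52.0% ± 1.17 at P20 (SD, n = 5).

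The difference was then given by the level of the CpG (the plot of library means by level); bins were not tested against each other. CpGs were put into bins by their mean over the 8 libraries, which does not depend on age. At 9854 CpGs between 70% and 90%, the E18.5 libraries had means of 79.8%, 77.1%, 78.5% and 75.5% and the P1 libraries 80.1%, 79.98%, 81.8% and 81.1%. All 4 P1 libraries were above all 4 E18.5 libraries there, by 3.04 percentage points on average, which gave the smallest p the design allows (exact permutation test, p = 0.0286), but not an adjusted p past 0.1 over the 6 bins (adjusted p = 0.171). At 7263 CpGs between 50% and 70% the difference was 3.95 percentage points, from 59.3% ± 2.98 to 63.2% ± 2.27 (SD, n = 4 each), and E18.5 replicates 1 and 6 lay within the P1 range (exact permutation test, p = 0.0857). It was 2.24 percentage points between 30% and 50%, 0.588 between 10% and 30%, -0.292 under 10% and 0.541 over 90%, with p-values of 0.257 to 0.714 and overlapping groups in each of these bins. Which bin had no overlap depended on how CpGs were binned. With bins by the mean of the P5 libraries, the groups did not overlap at 2971 CpGs over 90%, where the difference was 2.54 percentage points (exact permutation test, p = 0.0286), and they overlapped at 10172 CpGs between 70% and 90%, where it was 3.82 (exact permutation test, p = 0.0571); neither passed 0.1 after adjustment over the 6 bins (adjusted p = 0.171 each).

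**Figure D1:**
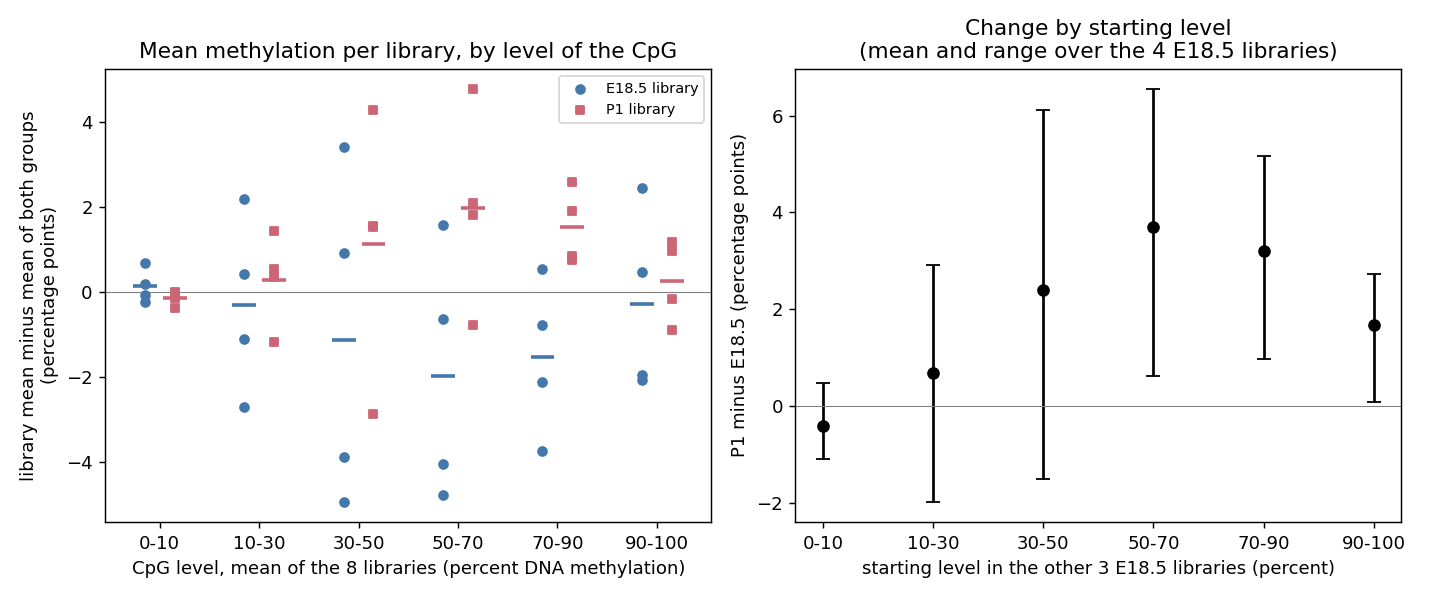
Left: the mean percent DNA methylation of each E18.5 (circles) and P1 (squares) liver library in 6 bins of CpG level, as the difference from the mean of both groups in percentage points, with a line at each group mean. In these bins, set by the mean of the 8 libraries, all P1 libraries lie above all E18.5 libraries between 70% and 90%; with bins by the P5 mean this was so over 90% instead. Right: the change from E18.5 to P1 by starting level, the mean and range over the 4 E18.5 libraries, each compared in bins set by the other 3; the mean is highest, at 3.71 percentage points, where the starting level was 50% to 70%.

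The starting level was described without letting a library set its own bin: each E18.5 library was compared with the P1 mean in bins set by the other 3 E18.5 libraries. CpGs that started under 10% differed by -0.415 percentage points (SD 0.748 over the 4 libraries), and those that started between 10% and 30% were 0.681 higher (SD 2.14). From 30% to 50% the difference was 2.40 (SD 3.27), from 50% to 70% it was 3.71 (SD 2.52), from 70% to 90% it was 3.20 (SD 1.74) and over 90% it was 1.67 (SD 1.16). In the 3 upper bins the P1 mean was above each of the 4 E18.5 libraries. Bins set by the same E18.5 means that enter the difference gave 1.18 under 10% and -3.71 over 90%, which carries the error of the E18.5 values into the bins and is not used further.

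The share of CpGs over 80% methylated was 21.3%, 15.6%, 21.2% and 14.2% in the E18.5 libraries and 21.5%, 20.6%, 22.99% and 22.5% in the P1 libraries. E18.5 replicates 1 and 14 lay within the P1 range and replicates 6 and 15 below it, and the difference of 3.83 percentage points was within the spread (exact permutation test, p = 0.114, adjusted p = 0.343 over 3 shares). With limits of 20% and 90% in place of 10% and 80%, the difference was 0.975 percentage points over the upper limit (exact permutation test, p = 0.686) and -0.157 between the limits (p = 0.943 in the exact permutation test). The share under 10% was 19.6% ± 2.15 at E18.5 and 18.9% ± 0.988 at P1, and the share between the limits was 62.3% ± 4.59 and 59.2% ± 1.21 (SD, n = 4 each). Without E18.5 replicate 14, over the same 32445 CpGs, the difference in the share over 80% was 4.87 percentage points and that in the share between the limits -5.01, and both passed the limit (exact permutation tests of 3 against 4, adjusted p = 0.0857 each; this comparison was chosen after the data were seen). Over the 64915 CpGs with a value in the other 7 libraries, the share over 80% was 23.5%, 17.6% and 15.9% in the E18.5 libraries and 22.8% to 25.3% in the P1 libraries, and the difference of 5.28 percentage points passed the limit (exact permutation test of 3 against 4, adjusted p = 0.0857). The difference in the share between 10% and 80% was then -5.58 percentage points (exact permutation test of 3 against 4, adjusted p = 0.0857).

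By genomic context, the difference was largest away from genes and smallest at promoters. Intergenic CpGs had 51.2% ± 2.27 at E18.5 and 54.2% ± 1.49 at P1, introns 50.6% ± 2.06 and 52.8% ± 1.31, exons 46.4% ± 1.44 and 47.8% ± 0.975, and promoters (1 kb upstream of a transcription start) 26.5% ± 1.52 and 26.8% ± 0.595 (SD, n = 4 each). With CpGs split into 3 classes by the number of CpGs within 200 bp, the difference was 3.47 percentage points in the class with the fewest, 2.11 in the middle class and 0.657 in the class with the most. None of the 9 contexts passed (exact permutation tests, p = 0.0857 to 0.714, adjusted p = 0.257 or more), and contexts also differed in level, whose part in these differences was not tested. On the X chromosome, 203 CpGs differed by 1.30 percentage points, against 2.12 on the autosomes.

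Single CpGs showed the same tilt but no called change. With an adjusted p up to 0.1 and a difference over 5 percentage points required, limma called 0 of 70051 CpGs (0%), and the smallest adjusted p was 0.698. At an unadjusted p under 0.05 there were 3791 CpGs higher at P1 (5.41%) and 886 lower (1.26%), so that 81.1% of these were higher. An unmoderated model gave 3908 at that limit and a fit on the logit scale 3580, of which 73.5% were higher. Among CpGs with all 8 values, 1003 of 32445 were higher in every P1 library than in every E18.5 library (3.09%) and 235 were lower (0.724%). E18.5 replicate 15 carried part of the tilt: without it 67.6% of the 4599 CpGs with an unadjusted p under 0.05 were higher, and without P1 replicate 3 it was 71.9% of 4394.

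The median difference per CpG was 1.58 percentage points (quartiles -3.03 and 7.27), and 59.1% of the CpGs were higher at P1. With 1 library left out at a time the median ranged from 0.79 without E18.5 replicate 15 to 2.38 without E18.5 replicate 1. Differences of 20 percentage points or more were found at 1852 CpGs higher at P1 and 564 lower. With 30 percentage points as the limit, 135 were higher and 34 lower. These counts depended on the libraries: at 30 percentage points they were 317 and 34 without E18.5 replicate 1, 444 and 97 without replicate 6, 278 and 180 without replicate 15, and 223 and 75 without P1 replicate 2. At 20 percentage points they were 2947 and 513 without E18.5 replicate 1, 3244 and 992 without replicate 6, 2425 and 1477 without replicate 15, and 2499 and 1179 without P1 replicate 3. By distance from the nearest transcription start the median went from 0.11 percentage points within 1 kb to 1.31 at 1 to 5 kb, 2.08 at 5 to 20 kb, 2.59 at 20 to 100 kb and 3.36 beyond 100 kb, along with the median level at E18.5, which was 13.7%, 53.8%, 64.0%, 65.0% and 66.8% in the same order. The X chromosome had a median difference of 0.97 percentage points at 347 CpGs.

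**Figure D2:**
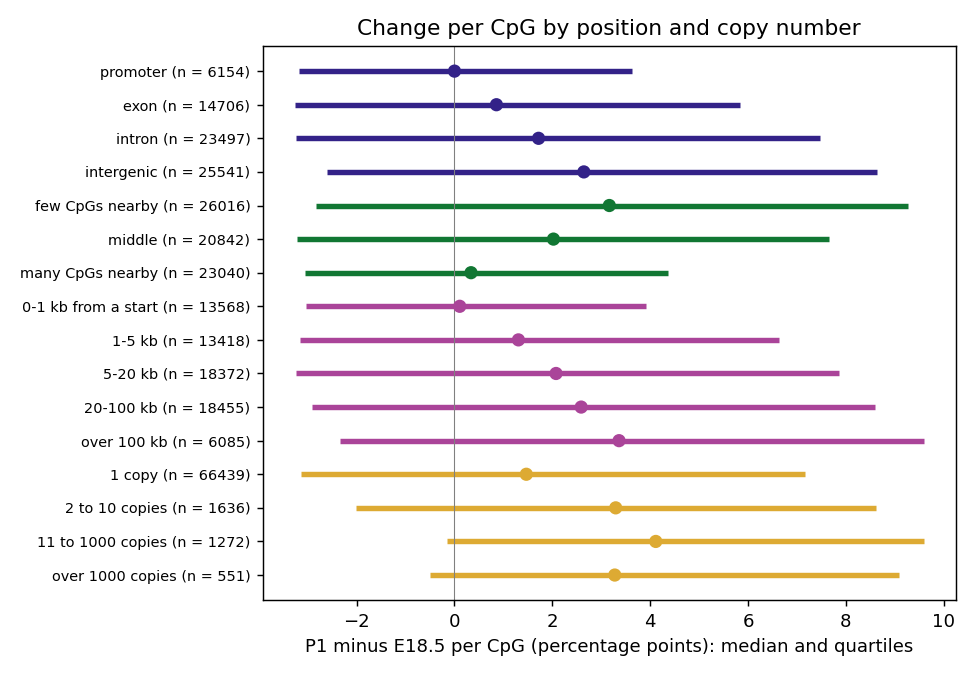
Median (point) and quartiles (line) of the P1 minus E18.5 difference per CpG, in percentage points, by genic context, CpGs within 200 bp, distance from a transcription start and copies of the surrounding 32 bases in mm9. The medians lie between 0.00 at promoters and 4.11 at CpGs with 11 to 1000 copies, and most lines cross 0.

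CpGs in repeated sequence had higher median differences. The 32 bases around a cytosine occurred once in mm9 for 66439 CpGs, whose median difference was 1.47 percentage points with 58.5% higher. It was 3.30 at 1636 CpGs with 2 to 10 copies (66.7% higher), 4.11 at 1272 with 11 to 1000 copies (74.2%) and 3.28 at 551 with over 1000 copies (72.1%). Their median E18.5 levels were 69.7%, 73.0% and 74.2%, against 57.9% at CpGs with 1 copy, and the part of level in this difference was not tested. With the single-copy CpGs alone, a choice made after the data were seen, the difference over all CpGs was 2.03 percentage points.

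The longest run, 371 cytosines at chr17:39980611-39983847, was 33.7%, 27.7%, 25.5% and 20.4% methylated in the E18.5 libraries and 22.1%, 35.7%, 38.1% and 32.4% in the P1 libraries. The groups overlapped, and 311 of its cytosines were higher at P1 (limma adjusted p = 0.823 for the run). This position may hold a copy of the ribosomal RNA gene, which is repeated in the genome, so its level may come from copies that the assembly does not show, although its 32-base sequences had a median of 1 copy in mm9.

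Differences of neighbouring cytosines were correlated over short distances. Across pairs of members on the same strand within 40 bp, which share reads, the 2 differences had a Pearson correlation of 0.46 (44025 pairs). On opposite strands within 40 bp, which come from different reads of the same livers, it was 0.22 (2982 pairs), and for the 2 strands of the same CpG it was 0.20 (573 pairs, 61.1% with the same sign). The correlation was 0.17 from 41 to 100 bp, 0.08 from 101 to 200 bp and 0.06 in both classes of longer distance. These are descriptions over cytosines of the same 8 libraries.

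**Figure D3:**
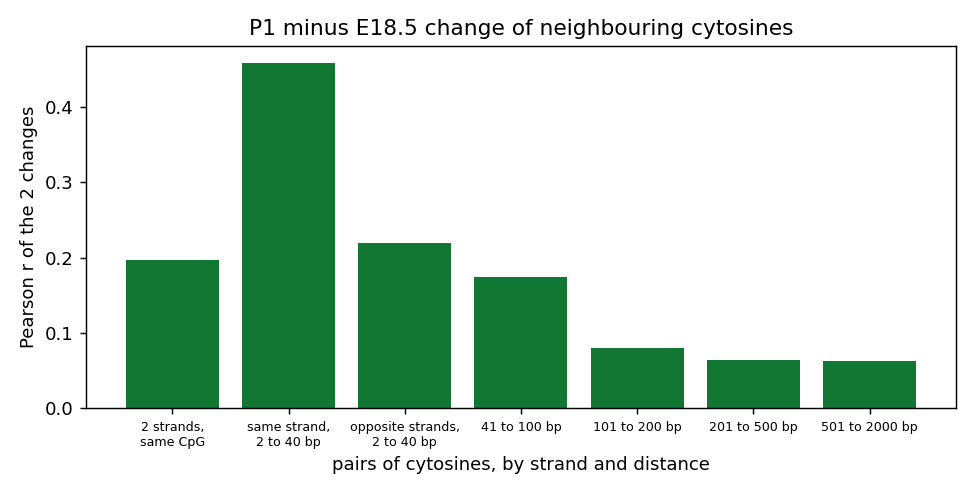
Pearson correlation of the P1 minus E18.5 difference between pairs of cytosines, by strand and distance. The bar for the same strand within 40 bp, at 0.46, is the highest, and beyond 100 bp all bars are at 0.08 or lower.

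Runs were therefore compared as units: at least 5 member cytosines with no gap over 200 bp. There were 2297 runs with 15700 cytosines, a median of 6 cytosines and a median span of 130 bp. The SE of a run's difference had a median of 3.98 percentage points, against 6.82 for a single CpG. In 248 runs (10.8%) every cytosine was higher at P1, in 87 (3.79%) every one was lower, and 1962 (85.4%) held both. limma called 0 of the runs (0%), the smallest adjusted p was 0.394, and at an unadjusted p under 0.05 there were 166 higher (7.23%) and 29 lower (1.26%). Among 1324 runs with a level in all 8 libraries, 54 were higher in every P1 library (4.08%) and 6 were lower (0.453%). Without E18.5 replicate 15, 131 runs were higher and 76 lower at an unadjusted p under 0.05, and over all 8 libraries left out in turn the counts ranged from 119 to 181 higher and from 15 to 76 lower.

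By level, of the 865 runs between 70% and 90%, 73.1% were higher at P1 with a median difference of 2.77 percentage points, and of the 378 between 50% and 70%, 67.5% were higher with a median of 2.21. Runs between 10% and 30% were higher in 49.8% of 410 and those under 10% in 50.9% of 326. Intergenic runs were higher in 69.7% of 660 and promoter runs in 55.7% of 210. Runs of 10 or more cytosines, tested alone, gave 2 calls among 211: chr2:98502421-98503099 near Gm10801, which went from 62.8% ± 1.76 to 70.3% ± 0.725 (SD, n = 4 each, limma adjusted p = 0.0829, median of 2 copies in mm9), and a run of 10 cytosines on unplaced sequence with 62.9% ± 1.25 and 70.1% ± 0.296 (adjusted p = 0.0829). Among all runs their adjusted p was 0.416.

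The 6 runs with the smallest p in each direction are given as descriptions, because none passed the test (adjusted p = 0.394 to 0.418), and beside the 7.23% and 1.26% above. The Fer run, 31154 bp from Fer, which encodes a non-receptor tyrosine kinase, was 68.6%, 64.1%, 60.8% and 68.0% methylated in the E18.5 libraries and 83.0%, 82.7%, 78.5% and 81.3% in the P1 libraries. Its groups did not overlap, it differed by 16.0 percentage points (SE 2.63), and it was at 77.7% at P5 and 82.8% at P20. Both strands were higher, by 10.39 percentage points on the plus strand and 20.0 on the minus strand.

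The Dnahc5 run, in an exon of an axonemal dynein heavy chain gene and the adjoining intron, had 49.4%, 42.7%, 36.8% and 45.2% at E18.5 and 60.5%, 60.6%, 60.4% and 71.4% at P1. It differed by 19.7 percentage points (SE 3.68), and the later ages were higher still, from 69.7% at P5 to 79.3% at P20. The 4 plus-strand cytosines differed by 23.7 and the only minus-strand one by 3.6 percentage points. The Nkx2-1 run lay 7031 bp from Nkx2-1, which encodes a transcription factor of lung, thyroid and forebrain. It had 14.8%, 34.3%, 21.6% and 30.9% at E18.5 and 45.8%, 39.2%, 50.3% and 47.0% at P1, with 40.4% at P5 and 56.3% at P20.

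The other 3 runs that were higher had no overlap between the groups either. The Mapk13 run, at chr17:28914986-28915115 in an exon of a p38 kinase gene, had 64.7% to 67.4% in 3 E18.5 libraries and 77.5% to 87.0% at P1. The Gm1993 run on the X chromosome, at chrX:24774753-24774793, had 66.2% to 70.5% in 3 E18.5 libraries and 78.0% to 87.7% at P1, and its 32-base sequences had a median of 37 copies in mm9, so its reads may come from several places. The Gm10479 run on chromosome 12, at chr12:20240054-20240174, had 46.0% to 60.6% and 67.0% to 70.3%, and at P5 it was at 55.5%, near the E18.5 level.

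Among the runs that were lower, the one in a coding exon of Runx1, a transcription factor needed for blood stem cells, had 52.6%, 58.9% and 58.1% in E18.5 replicates 1, 6 and 15 and no level in replicate 14. At P1 it had 48.8%, 26.9%, 36.0% and 27.4%, so that the groups did not overlap but P1 replicate 1 was close to the E18.5 range. The difference was 21.8 percentage points lower at P1 (SE 5.44), all 5 cytosines were lower by 18.9 to 24.8 percentage points, and the level went on to 12.5% ± 6.10 (SD, n = 4) at P5, 13.6% for P10, 3.51% at P15 and 6.96% at P20. The 15 later libraries lay between 0% and 24.7%, all below the E18.5 libraries and below each P1 library. In muscle the same 5 cytosines were at 17.4% ± 7.68 (SD, n = 3) at E18.5 and 6.34% ± 3.93 (SD, n = 5) at P1.

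The Agap2 run, in a coding exon of an ARF GTPase-activating protein gene, had 48.8%, 42.5% and 32.1% in 3 E18.5 libraries and 6.00%, 23.5%, 26.9% and 7.58% at P1. It differed by 25.2 percentage points (SE 6.36), with 25.1% at P5 and 15.9% at P20, and in muscle 4 of its cytosines were at 10.36% at E18.5 and 6.98% at P1. The Actn1 run, in a coding exon of the gene for alpha-actinin 1, an actin cross-linker, had 41.6%, 46.8% and 40% in E18.5 replicates 1, 6 and 14 and 2.34% in replicate 15. At P1 it had 2.09%, 0.38%, 2.85% and 4.32%. Replicate 15 was thus within the P1 range, and without it the difference was -40.4 percentage points and passed the test (limma adjusted p = 9.5e-04), as did the gene Actn1. At P20 the libraries ranged from 16.7% to 60.4%, so the level also differed widely within a later age.

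The Gna15 run, at chr10:80965797-80965845 in a coding exon of a G protein alpha subunit of blood cells, had 30.5%, 32.3%, 29.2% and 25.3% at E18.5 and 20.0%, 19.4%, 22.99% and 14.7% at P1. The Palmd run, at chr3:116626073-116626213 in an exon of the palmdelphin gene, had 66.4% to 72.2% in 3 E18.5 libraries and 47.2% to 60.4% at P1, and was back at 67.8% at P5 and 78.0% at P20. The Gm20468 run, at chr17:27029898-27029943 in an intron, had 55.0% to 79.5% and 33.0% to 53.8%, with 56.7% at P5 and 21.5% at P20. Of the 12 runs, 11 had no overlap between E18.5 and P1, which the choice by p favours.

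**Figure D4:**
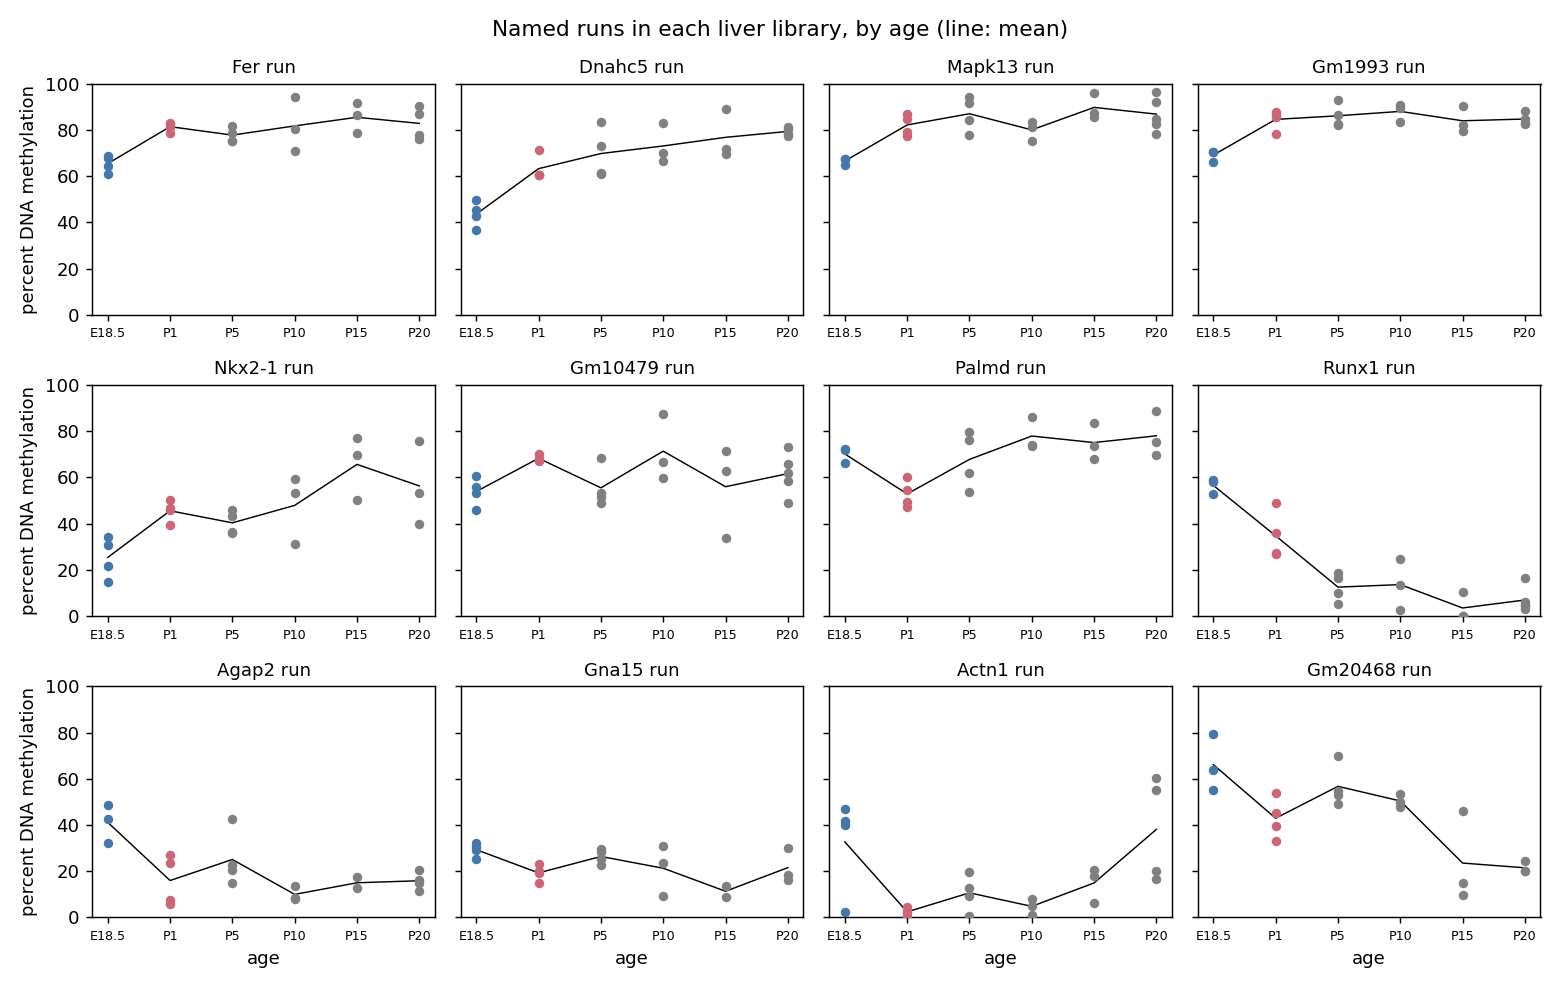
Percent DNA methylation of the 12 runs in every liver library by age, with E18.5 in blue, P1 in red, later ages in grey and a line through the means. At Runx1 the mean goes from 56.6% to 34.7% and then to 12.5% at P5, while at Actn1 a single E18.5 library lies at 2.34%, within the P1 range.

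Runs on 1 strand within 50 bp, which are read from a single fragment end, were 454 of the 2297. They held 10 of the 29 runs that were lower and 33 of the 166 that were higher at an unadjusted p under 0.05, and their differences had an SD of 6.47 percentage points against 5.08 in the other runs. Windows of 300 bp around 2287 runs were searched on both strands for short motifs, as a description. AGATAA, the core of GATA sites, was in 10.6% of the 160 higher runs, 6.90% of the 29 lower runs and 8.44% of all runs. GAGGAA, the core of PU.1 sites, was in 28.1%, 10.3% and 23.96%, TGTGGT, the core of RUNX sites, in 16.9%, 13.8% and 16.1%, TGTTTAC, a forkhead sequence, in 2.50%, 6.90% and 2.75%, and GGGCGG, an SP/KLF sequence, in 16.9%, 27.6% and 21.9%. The HNF4 sequences CAAAGTCCA and CAAAGGTCA were in 0 of the higher runs, in 1 of the lower runs and in 8 of all runs. Each motif was counted on its own, so a window can hold several. The windows had a median of 9 CpGs in higher runs, 14 in lower runs and 12 in all.

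The single CpGs with the largest differences among those with all 8 values and no overlap are also descriptions (3.09% and 0.724% of CpGs did not overlap), at adjusted p = 0.698 each. At chr11:50756579, in the promoter of 4933414I15Rik, the E18.5 libraries had 40.4%, 29.3%, 7.14% and 22.2% and the P1 libraries 90.9%, 77.8%, 59.6% and 50%, and the P20 mean was 46.0%. At chr4:100240691, 17939 bp from Ube2u, the E18.5 libraries had 90.2%, 60.4%, 36.4% and 50% and the P1 libraries 96.3% to 100%. The 2 others that were higher, at chr2:168251708 near Nfatc2 and at chr12:104396012 in an intron of Unc79, went from 22.2% ± 11.03 to 58.5% ± 8.71 and from 37.8% ± 15 to 73.5% ± 12.97 (SD, n = 4 each). Both were lower again at P5, at 49.4% and 41.4%.

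The largest difference in the other direction was at chr2:152655497 in an exon of Bcl2l1, which encodes the survival protein BCL-XL. It had 72.6%, 77.5%, 63.6% and 53.3% at E18.5 and 18.8%, 41.7%, 43.4% and 15% at P1, and stayed low, with 30.4% at P5 and 4.61% at P20. The CpG at chr4:134665823, 10744 bp from Runx3, had 64.3%, 66.2%, 90.9% and 63.9% at E18.5 and 16.7% to 58.2% at P1, and was at 68.2% at P20. The CpG at chr10:79616381 in an exon of Midn went from 70.5% ± 13.6 to 38.3% ± 14.8 (SD, n = 4 each). The CpG at chr15:56045381, 306877 bp from Sntb1 and with 73 copies of its sequence in mm9, went from 83.4% ± 12.7 to 51.9% ± 11.6 and was at 81.3% at P5.

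Genes were compared as units from 5 kb before their start to their end, with at least 5 cytosines. limma called 0 of 3708 genes (0%), the smallest adjusted p was 0.421, and at an unadjusted p under 0.05 there were 233 higher at P1 (6.28%) and 30 lower (0.809%). Without E18.5 replicate 15 there were 173 higher and 101 lower, and without E18.5 replicate 1 there were 364 and 24. Dpy19l3, a C-mannosyltransferase gene, had 66.3%, 71.6%, 63.1% and 54.5% at E18.5 and 83.4%, 81.3%, 79.4% and 87.9% at P1. Rab27a, a small GTPase of granule secretion, had 56.0%, 57.9% and 49.6% in 3 E18.5 libraries and 71.9%, 79.3%, 76.5% and 65.2% at P1, and was at 51.1% at P5. Arhgap39, a GTPase-activating protein gene, had 47.8% ± 1.91 (SD, n = 3) and 61.2% ± 4.19 (SD, n = 4), and Efr3b 48.8% ± 1.58 and 60.8% ± 3.35.

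The other genes with the smallest p that were higher were Gm17287, Mapk13, Iqub, Sox30, Gm10722 and Gm11168, with differences of 8.83 to 15.7 percentage points. Gm10722 and Gm11168 lie together at the start of chromosome 9 in sequence with a median of 4 and 5.5 copies, and went from 59.1% ± 1.99 to 68.5% ± 1.53 and from 62.8% ± 1.85 to 71.6% ± 1.07 (SD, n = 4 each). Among the genes that were lower, Wbp7, a histone H3 lysine methyltransferase gene, had 59.0%, 53.3%, 53.1% and 44.9% at E18.5 and 42.8%, 40.6%, 44.3% and 39.2% at P1, and continued to 33.4% at P5 and 28.5% at P20. S1pr4, a sphingosine-1-phosphate receptor gene of lymphocytes, and AC159474.1 share the 5 cytosines of the Gna15 run, with 29.3% ± 2.97 and 19.3% ± 3.42. Dand5, Trp53i13, Gm20468, Gna15, Palmd, Gm5868 and Zfyve27 differed by -23.2 to -8.68 percentage points.

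Gene lists for the functions of the newborn liver were small in this table, since few members had 5 cytosines. All 3708 genes had a median difference of 1.23 percentage points, which was 0.50 without E18.5 replicate 15 and 1.99 without E18.5 replicate 1. At an unadjusted p under 0.05, where 6.28% of all genes were higher and 0.809% lower, the lists held 1 hepatocyte gene that was higher, 1 imprinted gene in each direction and 1 gene of DNA methylation that was lower, and those for metabolism, blood, fetal growth, endothelium, stellate cells and muscle held 0. Of 30 hepatocyte genes 5 could be tested, with 3 higher and 2 lower, 0 called and a median of 0.34. Trf, which encodes the iron carrier transferrin, had 68.3%, 50.3%, 60.3% and 54.0% at E18.5 and 71.0%, 65.4%, 68.0% and 64.0% at P1, a difference of 8.84 percentage points (SE 3.78, limma adjusted p = 0.639), and was at 26.7% at P20. The pioneer factor gene Foxa1 was at 4.51% ± 0.521 and 2.80% ± 0.264 (SD, n = 4 each) and Onecut1 at 17.2% ± 3.01 and 18.53% ± 3.11. Of 28 genes of the metabolic switch at birth 3 could be tested, with a median of -0.17: Ass1, of the urea cycle, had 76.2% ± 9.47 and 80.9% ± 4.10, Bdh1, of ketone body metabolism, 1.11% ± 0.870 and 0.566% ± 0.158, and Klf15 34.2% ± 2.64 and 34.1% ± 6.26.

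Of 35 blood cell genes 6 could be tested, 3 higher and 3 lower, with a median of -0.17. Runx1 as a whole gene was among the 6, and the lowest difference in this list was -3.75 percentage points, against -21.8 in the Runx1 run. Erg, a transcription factor of blood stem cells and endothelium, was at 47.4% ± 6.82 and 52.7% ± 1.31, Elane, neutrophil elastase, at 29.9% ± 4.94 and 26.1% ± 3.05, and Zfpm1, the GATA cofactor FOG1, at 30.5% ± 2.84 and 33.1% ± 5.74. With 1 library left out at a time, the difference ranged from 3.58 to 8.51 percentage points at Erg (highest without E18.5 replicate 1), from -5.31 to -1.43 at Elane (nearest to 0 without E18.5 replicate 14) and from 0.938 to 4.92 at Zfpm1 (lowest without P1 replicate 2, highest without P1 replicate 5). Of 19 fetal liver and growth genes 6 could be tested, with a median of 1.69 and Dlk1 at 23.9% ± 0.811 (SD, n = 3) and 30.1% ± 3.93 (SD, n = 4). Igf2bp2 and Zhx2 of that list had differences of 1.95 and 2.02 percentage points, and without 1 library that of Zhx2 ranged from 0.223 to 5.67. Among 12 genes of DNA methylation 3 could be tested: Tet3, a dioxygenase that oxidises methylcytosine, had 40.3% ± 5.44 and 32.5% ± 4.22 (limma adjusted p = 0.618), Dnmt3l 71.6% ± 7.54 and 79.0% ± 1.39, and Tet2 58.7% ± 14.1 and 62.6% ± 4.09.

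Imprinted genes, of which only 1 parental copy is methylated at control regions, gave 15 of 33 that could be tested, 8 higher and 7 lower, with a median of 0.17. Cdkn1c, a growth-restraining cell cycle inhibitor, had 30.4%, 28.9%, 41.2% and 23.3% at E18.5 and 18.9%, 17.5%, 28.6% and 17.5% at P1, a difference of -10.3 percentage points (SE 4.03, limma adjusted p = 0.618). Nap1l5 had 38.1% ± 3.02 and 44.4% ± 3.94. Of the other cell types, endothelium had 2 genes tested (Pecam1 33.5% and 40.8%, Flt1 13.8% and 13.4%), stellate cells and fibroblasts 2 (Des 8.68% and 4.73%, Lhx2 3.51% and 5.75%), bile duct 3 (among them Krt7 43.9% and 30.04%, Sox9 2.51% and 2.43%) and muscle 5 (among them Acta1 25.6% and 16.5%, Ckm 56.2% and 61.8%, Ttn 75.6% and 78.6%), with 0 called in each list. Without E18.5 replicate 14 the difference was -0.03 percentage points at Des, -4.26 at Acta1, -7.62 at Krt7 (-13.8 with all libraries) and 2.18 at Ckm (5.53 with all libraries). Without P1 replicate 1 it was 3.58 at Pecam1 (7.29 with all libraries).

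Muscle of the same ages (4 libraries at E18.5 and 5 at P1) was compared over CpGs measured in both tissues. Over 8493 CpGs with all values, the liver means were 48.7% ± 2.01 and 51.1% ± 1.64 (SD, n = 4 each) and the muscle means 48.8% ± 1.97 (SD, n = 4) and 47.7% ± 2.19 (SD, n = 5). The change was thus 2.49 percentage points in liver and -1.15 in muscle, and neither was larger than the spread between libraries (exact permutation tests, p = 0.114 and 0.413). The difference between the changes was 3.64 percentage points over all these libraries, which was not tested. The test used the liver minus muscle mean per replicate number, and libraries without a partner were left out. The labels do not say whether equal numbers mark the same animal. This mean was 0.472 ± 3.22 (SD, n = 3) at E18.5 and 3.24 ± 3.01 (SD, n = 4) at P1. The difference of 2.77 did not pass (exact permutation test of 35 assignments, p = 0.314). Across 30157 CpGs with 3 or more values per tissue and age, a limma interaction term called 0 (0%), with a smallest adjusted p of 0.107 and 1898 at an unadjusted p under 0.05, of which 1517 had a more positive change in liver than in muscle and 381 a more negative one. With the replicate number as a block these counts were 1337 and 823.

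By level, the median change in liver was 3.68 percentage points between 50% and 70% and 3.57 between 70% and 90%, and in muscle it was -1.84 and -0.53 (the plot of changes in both tissues). Of the named runs, Nkx2-1 also had a higher mean at P1 in muscle, 36.1% ± 8.58 (SD, n = 5) against 24.96% ± 10.02 (SD, n = 4). Gm10479 had 54.1% ± 16.5 against 43.4% ± 7.13, and Fer 64.2% ± 3.34 against 61.3% ± 11.5, with the same n. These muscle differences were not tested. Gm1993 had 84.995% at P1 against 86.1% at E18.5 in muscle, and Gm20468 45.7% against 50.9%. Of the Palmd run 3 of the 5 cytosines had muscle values, 56.4% at P1 against 56.01% at E18.5, and the same 3 were at 61.99% and 77.1% in liver.

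**Figure D5:**
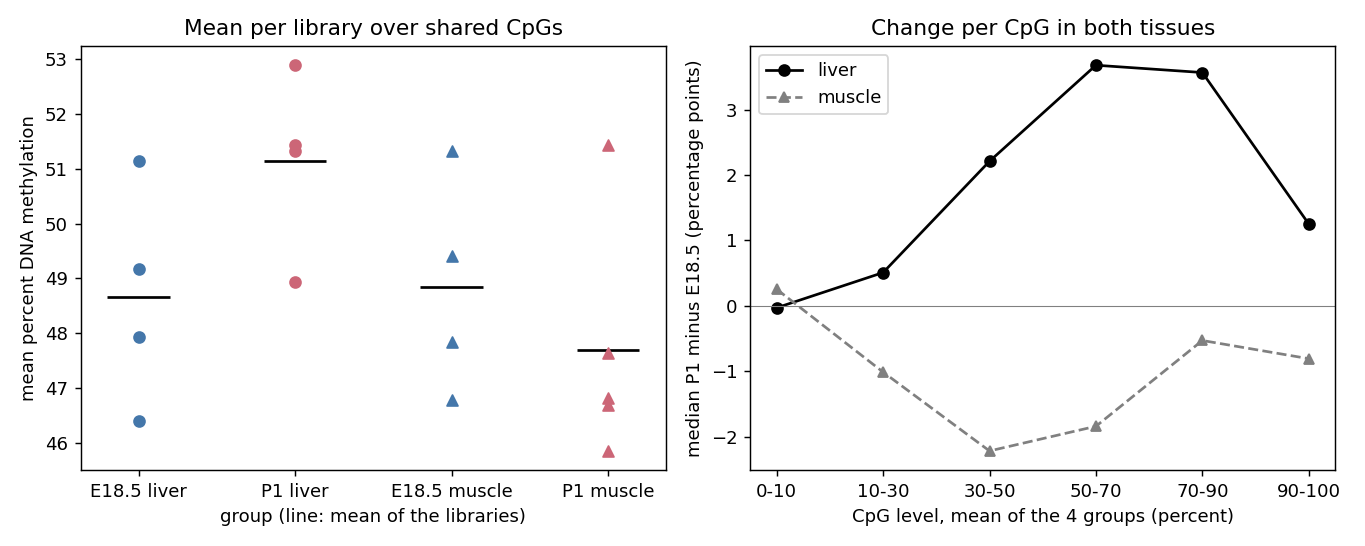
Left: mean percent DNA methylation per library over 8493 CpGs in liver and muscle at E18.5 and P1, with a line at each group mean; the 2 ages overlap in both tissues. Right: median P1 minus E18.5 difference per CpG by level, in liver (solid) and muscle (dashed); at levels between 50% and 90% liver lies above 3 percentage points and muscle below 0.

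Locus-specific bisulfite sequencing (LSBS), in which chosen fragments were amplified from bisulfite-treated liver DNA, covered 124 CpGs, of which 5 were members here. Over all 124 the mean was 36.7% ± 0.609 (SD, n = 6) at E18.5 and 37.5% ± 0.694 (SD, n = 5) at P1, with overlapping ranges of 35.8% to 37.2% and 36.6% to 38.2%. At the 5 shared CpGs LSBS gave 7.21% and 8.43%, and RRBS gave 5.01% and 6.90%, and the ages overlapped in both. The RRBS libraries ranged from 2.56% to 7.27% at E18.5 and from 3.41% to 13.5% at P1. The differences had a Pearson correlation of 0.0076 between the methods, and 4 of the 5 had the same sign. The 5 CpGs lie close together on chromosomes 8 and 10. By label, most LSBS libraries carry replicate numbers of the RRBS libraries and may be the same livers. The LSBS positions covered none of the named runs.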

How the data were processed

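RRBS of liver (4 libraries at E18.5, 4 at P1) was analysed, with the 15 later liver libraries, 9 muscle libraries and 11 LSBS libraries for context. The deposited values are methylation fractions per cytosine, which the authors made by aligning reads to mm9 with Bismark 0.7.6 and Bowtie2, setting cytosines under 10 reads to missing, and removing those missing in over 20% of the samples or under 10% methylated in all. Fractions were multiplied by 100. Only MspI fragment ends were read, so the values describe CpGs near CCGG sites, and CpGs under 10% in all samples are absent. Of the same tables, 47 columns (other ages, or names that match no sample) were not used here.

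Groups follow the labels, and nothing says that replicates differ in litter or day, so p-values measure the spread between these samples. CpGs, runs and genes were compared with limma 3.58.1 in R 4.3.3 on fractions with Benjamini-Hochberg adjustment, and called where the adjusted p was up to 0.1 and the difference over 5 percentage points. A run's or gene's level is the mean deviation from each cytosine's mean plus the mean of those means, with at least 3 values per library. E18.5 replicate 14 has no level in some runs and genes, and the fit then used 3 E18.5 libraries. Library means and shares were tested by two-sided exact permutation. Annotation was GENCODE on mm9; overlapping genes share cytosines. Copies are exact matches of 32 bases in mm9. The scripts were tested on simulated data. Named were the 6 runs and 10 genes with the smallest p in each direction (none was called), the 4 CpGs with the largest difference in each direction among those with 8 values and no overlap, at most 1 per kb, and up to 3 genes with the smallest p per list, of which 1 gene is not reported here. The members, lists and tests were chosen with earlier results of these data known. Alternatives covered the libraries in the fit, the logit scale (offset 0.01), array weights, missing values, run and gene extents, bins, limits, autosomes and each library left out. Python 3.11.15 with pandas, numpy and pysam was used.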

Additional observations from a re-analysis of the deposited data

Results flagged for a closer look

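In 9 of the 153 groups of 4 libraries checked, 1 library stood far from the other 3 by a limit that is set to be passed by chance in about 1 of 20 groups. The rate in groups chosen for a small p, as many of these were, was not measured. At E18.5 these were the Actn1 run (2.34% in replicate 15, against 40% to 46.8%), the CpG near Runx3 (90.9% in replicate 14, against 63.9% to 66.2%) and the gene Des (20.5% in replicate 14, against 4.03% to 5.23%). At P1 they were the Dnahc5 run (71.4% against 60.4% to 60.6%), the CpG near Ube2u (96.3% against 100% in the others), and the genes Arhgap39 (54.9% against 62.8% to 63.7%), Gm5868 (24.1% against 17.4% to 18.4%), Igf2bp2 (91.4% against 80.3% to 82.0%) and Cdkn1c (28.6% against 17.5% to 18.9%).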

How the results depend on the processing

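No paired analysis was possible for the liver comparison, because livers at E18.5 and at P1 come from different animals and the labels give no litter. For liver against muscle, the fit with the replicate block called 0 of 30083 CpGs, as did the fit without it, and samples with the same number did not deviate together (correlations of -0.055 to 0.049). These correlations do not show whether equal numbers mark the same animal. Calls of CpGs stayed at 0 under every alternative run. Runs gave 2 calls with at least 10 cytosines and 0 to 1 when a library was left out, and genes 0 to 1; the call was Actn1, without E18.5 replicate 15. Without each library in turn the shift of the mean ranged from 1.38 to 2.93, that between 70% and 90% from 2.23 to 3.67, that under 10% from -0.452 to -0.0717, from 10% to 30% from -0.296 to 1.48, from 30% to 50% from 0.888 to 3.72, and over 90% from -0.117 to 1.53. The share under 10% ranged from -1.38 to 0.301 (0.136 without E18.5 replicate 14 over the same CpGs), the share between the limits from -5.58 to -1.68 (-5.01 without E18.5 replicate 14 over the same CpGs), the share over 80% from 2.54 to 5.28 (4.87 likewise), promoters from -0.315 to 0.945, exons from 0.750 to 1.93, introns from 1.33 to 2.97, the X chromosome from 0.495 to 2.06 and the class with the most CpGs nearby from -0.00112 to 1.22. The middle class of CpGs nearby ranged from 1.33 to 2.96 and the class with the fewest from 2.68 to 4.48. With medians, the shift was 0.460 under 10%, -0.203 over 90% and -0.412 at promoters. Bins by the P5 mean gave 2.54 over 90% and 3.82 between 70% and 90%, and limits of 20% and 90% gave differences in share of 0.975, -0.157 and -0.818 over, between and under them. Bins by the E18.5 mean gave 1.18 and -3.71 in the outer bins, which follows from how they are set. Small differences changed sign without 1 library at Onecut1 (lowest -0.107, highest 2.90), Klf15 (-2.91, 2.14), Igf2bp2 (-0.616, 3.21), Tet2 (-0.553, 9.44), Flt1 (-1.65, 0.500) and Sox9 (-0.988, 0.573); the cause was not tested. Among others that moved over 1.5 times without changing sign, Ass1 ranged from 1.93 to 8.80, Zhx2 from 0.223 to 5.67, Dnmt3l from 3.56 to 11.1, Des from -5.50 to -0.03, Acta1 from -11.3 to -4.26, Krt7 from -17.2 to -7.62, Ckm from 2.18 to 8.27, Ttn from 1.83 to 4.13, Pecam1 from 3.58 to 10.6, Erg from 3.58 to 8.51, Elane from -5.31 to -1.43, Zfpm1 from 0.938 to 4.92 and Bdh1 from -0.949 to -0.362. E18.5 replicate 14, with 50.3% missing values, limits what the 8-library values show.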
